A study of Apis mellifera with 25 samples.

Results

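Single-nucleotide positions that lie in genes of unplaced honey bee scaffolds are described here, with the reads that each position gave to either parent. A member is a position on a scaffold whose name begins with GroupUn, listed under a single gene identifier in either of the deposited allele tables. There were 1631 such positions of 116744 in all, and 59617 positions in genes of the placed scaffolds (Group1 to Group16) served as the comparison. The 1631 positions fell in 291 genes on 179 scaffolds, and 1077 of them were in both tables. With active ovaries 1219 of them in 261 genes were listed, and with inactive ovaries 1489 in 272 genes. A further 12 and 16 unplaced rows, listed under 2 identifiers each, were left out.

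The RNA came from 25 adult workers of Apis mellifera, 1 bee per library, 12 with active and 13 with inactive ovaries. All were offspring of reciprocal crosses between Africanized and European bees and had spent about 18 days in colonies without a queen before dissection. Polyadenylated RNA came from the eviscerated abdomen, which keeps the fat body and the ovaries. Library titles start with 1 of 4 numbers, 875, 882, 888 and 894, which are called title prefixes and taken as the crosses. What the numbers stand for is not labelled; each prefix held 3 active and 3 or 4 inactive libraries. Each library held several tissues, so fewer cells of a type and less RNA per cell cannot be told apart, and tissue markers could not be looked up because the files do not pair identifiers with gene names.

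A queenless honey bee worker can activate its ovaries and lay unfertilised eggs. Because queens mate with many drones, the relatedness of workers through the father differs from that through the mother, and kinship theory asks whether the paternal and the maternal allele of a gene are then expressed unequally. A worker carries 1 allele of each, and single-nucleotide differences let reads be given to the drone father (D) or the queen mother (Q). Neither the labels nor the headers define D and Q, and the words paternal and maternal depend on reading them so. If a prefix is a cross, its father and mother differ in lineage, Africanized or European, and the direction is not labelled. Within a prefix, the parent and the lineage of an allele therefore cannot be told apart. Unplaced scaffolds are pieces of a genome assembly that could not be ordered on a chromosome; such pieces are often short or repetitive.

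Total gene counts per library ran from 11.5 to 34.7 M with active and from 7.54 to 37.7 M with inactive ovaries (M, 1000000 counts). A position was judged in a prefix if 10 or more reads were present in 2 or more of its libraries, and was called separating where its D and Q counts were not too alike (lower chi-square tail of 0.01). This choice uses the counts and so favours larger ratios. The rule was the same on unplaced and placed scaffolds, but it kept a larger share of the unplaced positions, as given below. Its effect on the shares can therefore differ between the classes. In allele shares 3 inactive libraries stood apart: of prefix 882, replicate 6, and of prefix 888, replicates 8 and 9. The SD of the D share between placed genes was 23.1 to 24.3 percentage points in these 3 and 17.5 to 19.6 points in the other 22.

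Unplaced positions were unevenly spread over genes. Of the 291 genes, 134 (46.0%) held a single position, against 30.5% of placed genes. The 5 genes with the most positions held 28.6% of the unplaced positions, against 3.53% for the top 5 on placed scaffolds. Most unplaced scaffolds carried little: 135 of 179 had 1 gene. Enough reads were found at 888 of the 1631 positions in at least 1 prefix, and 653 positions in 168 genes were separating in at least 1.

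More unplaced than placed positions separated the parents, in each of the 4 prefixes. The separating share of judged unplaced positions was 62.0% in prefix 875, 46.9% in 882, 61.3% in 888 and 48.1% in 894. On placed scaffolds it was 41.5%, 33.4%, 38.3% and 32.7% in the same order of prefixes. Positions with reads of a single parent in every library of a prefix stood further apart. They made up 5.26%, 5.92%, 7.61% and 7.89% of judged unplaced positions, against 0.216%, 0.205%, 0.301% and 0.248% of placed ones. These were 40, 39, 54 and 57 unplaced positions on 10, 8, 12 and 12 scaffolds. The placed ones were 82, 65, 109 and 83 positions on 48, 34, 59 and 48 scaffolds. Positions of a gene were counted separately, so the percentages are not shares of genes. On unplaced scaffolds, paternal-only positions outnumbered maternal-only ones in prefixes 875, 882 and 894, with 32 against 8, 30 against 9 and 49 against 8. Prefix 888 had 25 paternal-only and 29 maternal-only positions. In prefix order the paternal-only ones lay in 8, 6, 7 and 11 genes, the maternal-only ones in 4, 4, 7 and 3. Placed scaffolds showed the same excess in all 4 prefixes, with 50 against 32, 53 against 12, 88 against 21 and 69 against 14. With 4 prefixes, a two-sided exact sign-flip test cannot go below 0.125, so these shares are given as a description.

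Averaged over genes, the D share was modestly higher on unplaced scaffolds, and most of that gap rested on a pair of scaffolds. For each library the D share at separating positions was averaged over genes with at least 10 reads, which were 55 to 103 unplaced genes. The 25 libraries averaged 59.9% ± 4.71 on unplaced and 56.5% ± 1.71 on placed scaffolds (SD, n = 25). The gap of 3.34 points was above 0 in 18 of 25 libraries (two-sided sign-flip permutation test with 100000 resamples, adjusted p = 0.00504 over 7 tests). It was 2.12 points without scaffold GroupUn98 (permutation test, adjusted p = 0.111). Without GroupUn98 and GroupUn179 it was 1.11 points (permutation test, adjusted p = 0.578). Both scaffolds were chosen after seeing the data and hold genes called paternal, so a lower gap without them follows from that choice. Libraries of a prefix share positions and, if a prefix is a cross, parents, so these p-values measure the spread between bees.

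The gap was 1.79 points with active ovaries, above 0 in 7 of 12 libraries (exact sign-flip test, adjusted p = 0.268). With inactive ovaries it was 4.77 points, above 0 in 11 of 13 libraries (exact sign-flip test, adjusted p = 0.00504), and 4.15 points once those 3 libraries were left out (exact test, adjusted p = 0.0342). The inactive call was lost without GroupUn98 (3.53 points, exact test, adjusted p = 0.0735), without both scaffolds (2.51 points, adjusted p = 0.383) and at positions above the chi-square median (4.09 points, adjusted p = 0.0837). It was narrowly missed with 1 position per gene (adjusted p = 0.0516), with the median over genes (0.0504) and without prefix 894 (0.0513). By prefix the gap was 3.82 points in 875, 2.03 in 882, 2.72 in 888 and 5.01 in 894, none past the threshold (exact sign-flip tests, adjusted p 0.137 to 0.406, where 6 libraries cannot go below an unadjusted 0.03125). With reads pooled over genes, which gives GB43331 a large weight, the gaps were 18.6, 11.2, 16.7 and 17.7 points in the same order and all passed (exact sign-flip tests, adjusted p 0.0273 to 0.0312). Without replicates 8 and 9, the gap of prefix 888 was -0.0883 points. The prefixes differed in the range of their libraries: with active ovaries in prefix 888, the unplaced share ran from 51.8% to 61.8%, and with inactive ovaries from 59.6% to 67.3%.

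**Figure D1:**
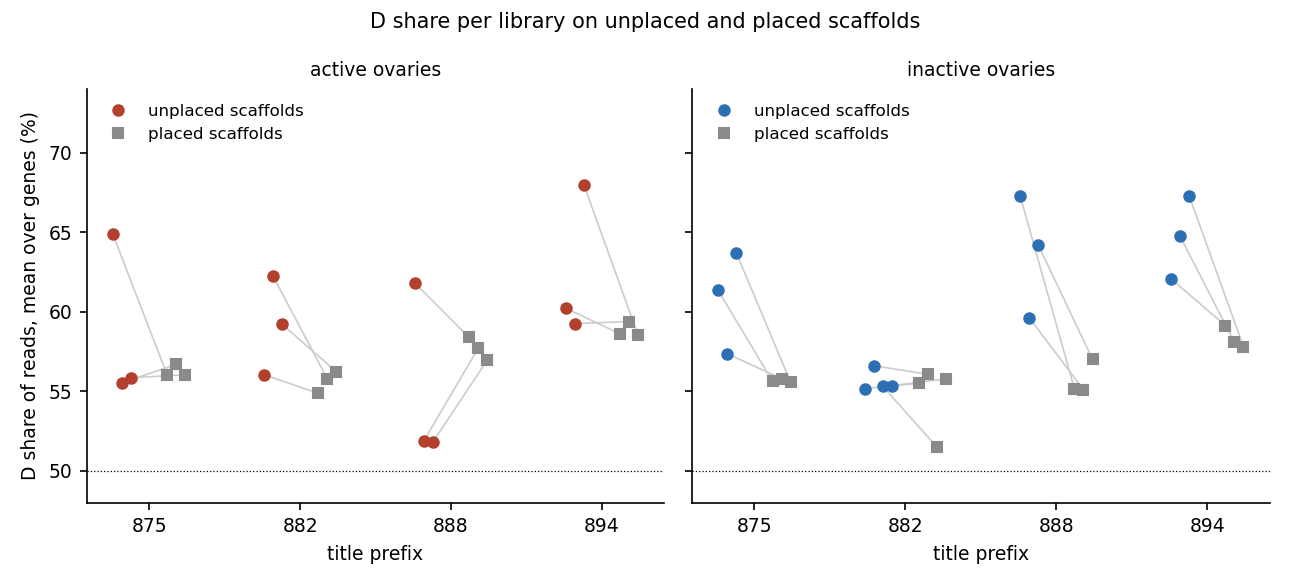
D share of reads (%) per library, averaged over genes, by title prefix; left panel active ovaries, right panel inactive ovaries. Circles are unplaced and squares placed scaffolds, a line joins the 2 values of a library, and the dotted line marks 50%; unplaced values spread from 51.8% to 68.0%, placed ones from 51.5% to 59.4%.

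Taken as a mean over prefixes, the unplaced share did not differ with ovary status beyond the spread between bees. The 12 active libraries averaged 58.9% ± 4.93 and the 13 inactive libraries 60.8% ± 4.51 (SD). Averaged within prefixes the difference was -2.31 points (exact permutation of status within prefix, adjusted p = 0.203). Prefixes went in unlike directions: active and inactive means were 58.8% and 60.8% in 875, 59.2% and 55.6% in 882, 55.2% and 63.7% in 888, and 62.5% and 64.7% in 894. The difference was -4.27 points without prefix 882 and -0.236 without prefix 888 (exact permutation tests, adjusted p = 0.0638 and 0.89). The gap to placed scaffolds differed by -3.30 points (exact permutation test, adjusted p = 0.182). The placed share was 0.987 points higher with active ovaries (exact permutation test, unadjusted p = 0.0155).

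What set unplaced genes apart in nearly every library was the share with reads of almost a single parent, in either direction. This measure was chosen after the shares had been seen. With active ovaries, 17.2% ± 7.37 of unplaced genes had a D share of 95% or more, against 7.36% ± 1.10 of placed genes (SD, n = 12), higher in 12 of 12 libraries. With inactive ovaries the values were 19.7% ± 6.67 and 7.23% ± 1.10 (SD, n = 13), higher in 13 of 13. At the maternal end, 5.86% ± 1.85 of unplaced genes had a D share of 5% or less with active ovaries, against 0.810% ± 0.228 of placed genes (SD, n = 12), higher in 12 of 12. With inactive ovaries these were 6.40% ± 2.66 and 1.61% ± 1.48 (SD, n = 13), higher in 12 of 13. All 4 differences had an adjusted p of 0.000488 (exact sign-flip tests over libraries, 6 tests in the family, where 0.000488 is the smallest unadjusted p that 12 libraries allow). Libraries share genes and positions, so these p-values measure the spread between bees, not that between genes or scaffolds.

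The size of this excess depended on the choice of positions. With every genic position it was 5.01 points with active and 5.31 points with inactive ovaries at 95% or more, and 2.65 and 1.97 points at 5% or less (exact sign-flip tests, adjusted p = 0.000488 for all 4).

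The excess at the paternal end was smaller without the pair of scaffolds. This follows from their choice, made after seeing the data, because they hold genes near complete paternal reads. Without GroupUn98 and GroupUn179, the excess of genes at 95% or more was 5.37 points with active ovaries and 8.05 points with inactive ovaries, against 9.79 and 12.5 points in all (exact sign-flip tests, adjusted p = 0.0273 and 0.000879 without them). The D shares of unplaced genes also had the wider spread within a library, with an SD between genes of 26.5 points on average against 18.6 on placed scaffolds with active ovaries. With inactive ovaries the SDs were 28.2 and 19.6 points.

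**Figure D2:**
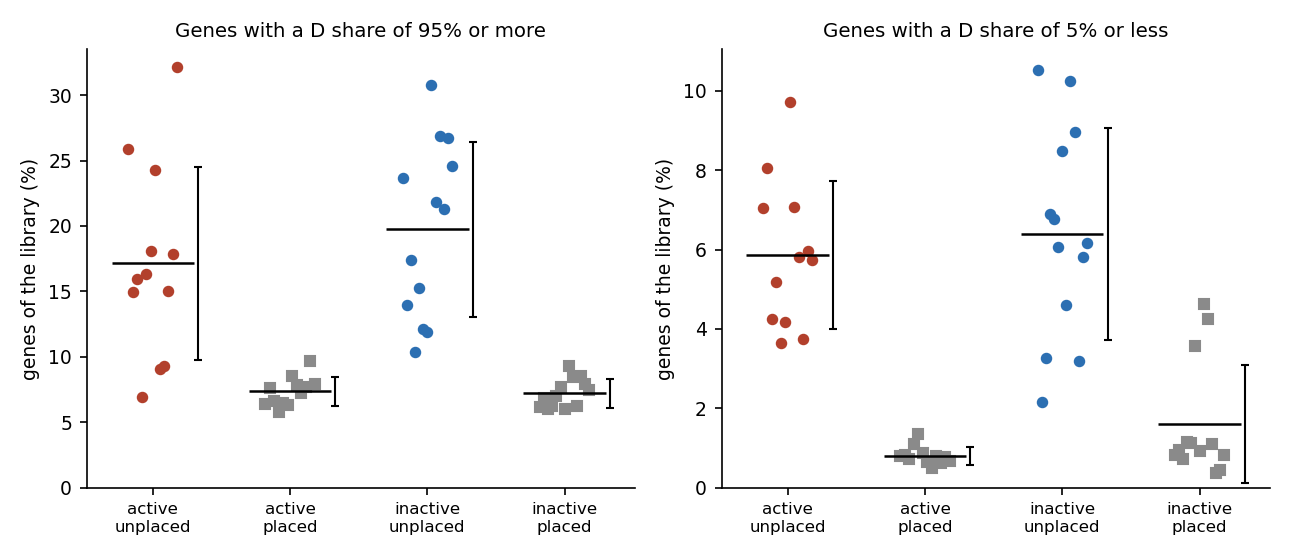
Share of a library's genes (%) with a D share of 95% or more (left) and of 5% or less (right), by ovary status and scaffold class. Each point is a library, the bar is the mean and the whisker ± 1 SD; unplaced means of 17.2% and 19.7% stand beside placed means of 7.36% and 7.23% at the paternal end.

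Parental bias was then tested gene by gene. Genes needed at least 10 reads at separating positions in at least 2 libraries of each prefix. That left 33 unplaced genes with active ovaries, 32 with inactive ovaries and 36 in either, on 30 scaffolds, so 255 of the 291 genes were not tested. Paternal calls (edgeR quasi-likelihood test, Benjamini-Hochberg adjusted p under 0.05) numbered 18 of 33 unplaced genes with active ovaries (54.5%), where 38.8% of all 914 tested genes were called. Maternal calls numbered 8 of 33 (24.2%), where 7.11% of all tested genes were called. With inactive ovaries, 14 of 32 unplaced genes were paternal (43.8%, against 27.8% of all 859 tested) and 5 were maternal (15.6%, against 6.40% of all tested). No test of these shares against each other was made. With every genic position in place of separating ones, 16.4% of unplaced and 20.8% of placed genes were called paternal with active ovaries, so the order of the classes turned, and 25.8% and 14.2% with inactive ovaries. Maternal calls then made up 5.74% and 2.68% with active ovaries, and 4.17% and 2.58% with inactive ovaries.

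The middle unplaced gene was not far from the middle gene of the series. The median log2 ratio of paternal to maternal reads was 0.37 over unplaced genes and 0.32 over all tested genes with active ovaries, and 0.38 and 0.25 with inactive ovaries. The spread was wider: with active ovaries the 25th and 75th percentiles were -0.42 and 2.33 for unplaced genes, against 0.08 and 0.75 for all tested genes. All 4 prefix means lay past 90% or all under 10% in 6 of 33 unplaced genes (18.2%) and 9 of 881 placed genes (1.02%) with active ovaries. With inactive ovaries it was 5 of 32 (15.6%) and 8 of 827 (0.967%).

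Of the 29 unplaced genes tested in both statuses, 13 were paternal in both, 4 maternal in both, 1 opposite, 4 called with active ovaries alone and 7 not called. Separating positions were chosen from both statuses together, so the lists are not independent.

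**Figure D3:**
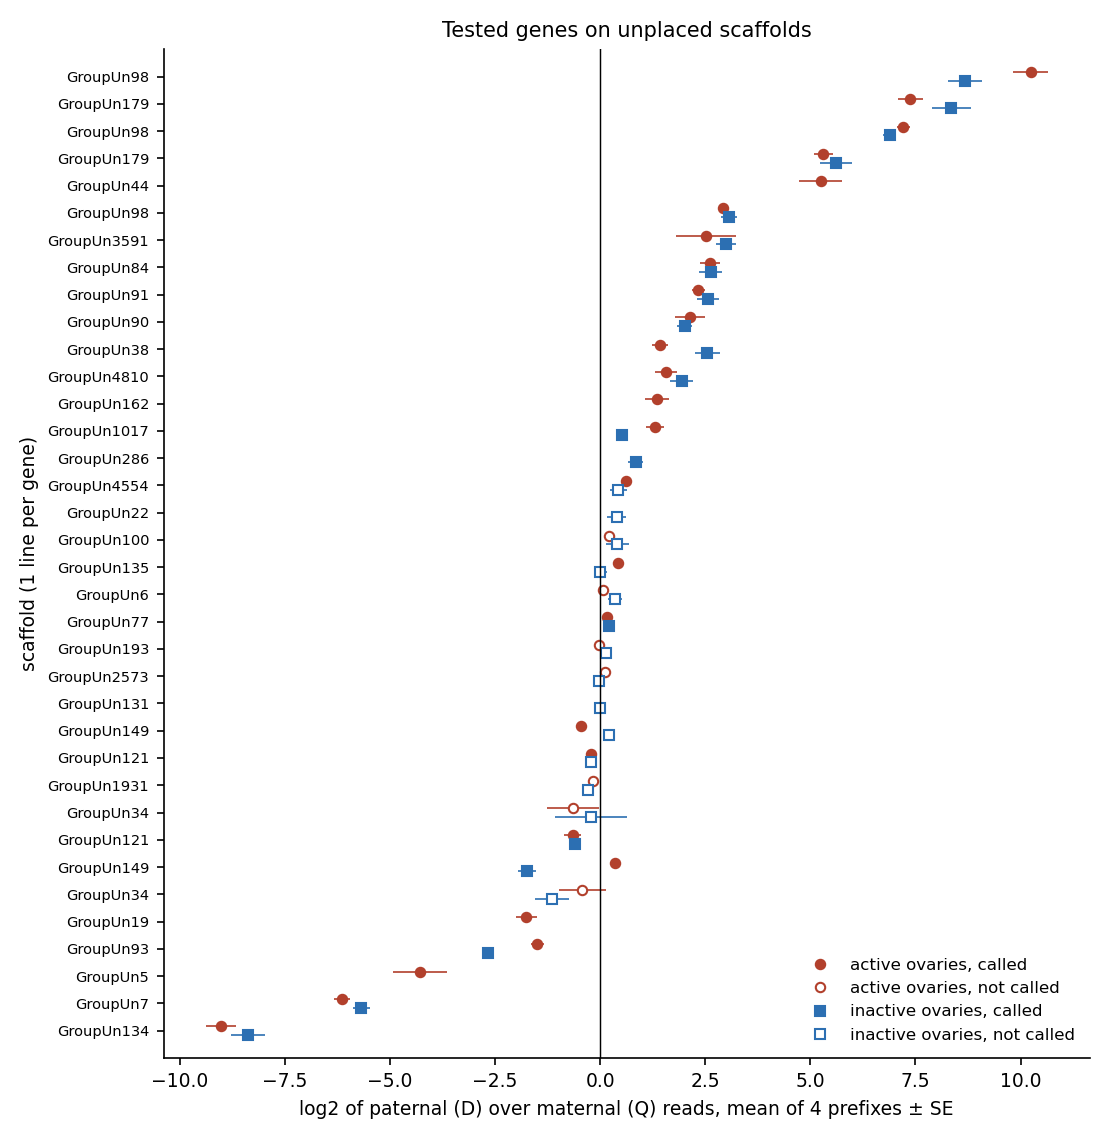
Fitted log2 ratio of paternal (D) to maternal (Q) reads for the 36 tested genes on unplaced scaffolds, 1 line per gene labelled by scaffold; circles are active and squares inactive ovaries, whiskers ± 1 SE, filled symbols called and open ones not. Values reach 10.24 for a gene of GroupUn98 and -9.02 for the gene of GroupUn134.

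Scaffold GroupUn98 held the densest group of paternal genes, 3 neighbours within 5383 bases (positions 23720 to 29102 in the coordinates of the files, whose build is not given in the sources used here). GB43331 (GroupUn98, 26579 to 29102) had more reads at separating positions than any other unplaced gene. It took 27.1% of unplaced reads per library on average with active ovaries (7.96% to 53.8%) and 35.5% with inactive ovaries (5.76% to 81.9%). Its D share was lowest at 99.0%, 99.4% at the median and highest at 99.6% over the 12 active libraries. Over the 13 inactive libraries these were 98.5%, 99.2% and 99.5%. All libraries lay near complete paternal reads, and the groups overlapped. Its log2 ratio was 7.21 (SE 0.15, edgeR adjusted p = 8.06e-10) with active and 6.88 (SE 0.15, adjusted p = 1.19e-10) with inactive ovaries. Among its 38 separating positions, the D share by position ran from 86.1% to 100% with a median of 99.9% over the active libraries.

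GB43326 (GroupUn98, 23720 to 24009), at the near end of the same scaffold, had a D share of 99.3% in the lowest, 100% in the median and 100% in the highest active library. The inactive libraries ran from 98.0% to 100% with a median of 100%. In all, 3918 D and 4 Q reads were counted at its 9 separating positions with active ovaries, and 3240 D and 7 Q reads with inactive ovaries. Its log2 ratio of 10.24 with active ovaries (edgeR adjusted p = 0.000274) rests on those few maternal reads.

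Between these lay GB43325, known from a single position (GroupUn98, 25872), and its D share depended on the prefix. In prefixes 875 and 894 the active libraries averaged 97.4% and 99.4%, and the inactive libraries 98.5% and 99.3%. In prefix 882 it averaged 58.6% with active and 60.5% with inactive ovaries. In prefix 888 it turned maternal, with 24.8%, 24.4% and 25.4% in the active and 26.1%, 24.5% and 21.4% in the inactive libraries. Bees of a prefix lay close together while prefixes lay far apart (edgeR test between prefixes, adjusted p = 5.78e-07 with active and 5.31e-06 with inactive ovaries). Its paternal call (log2 ratio 2.92 and 3.06, edgeR adjusted p = 9.59e-08 and 4.2e-07) is therefore a mean over prefixes of unlike direction.

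GroupUn179 carried a second paternal pair, 9269 bases from end to end. GB41933 (GroupUn179, 19409 to 19737) had a D share of 95.1%, 99.0% and 100% in the lowest, median and highest active library, and 97.7%, 100% and 100% in the inactive ones. GB41932 (GroupUn179, 10469 to 10933) had 96.0% to 99.9% in all active libraries outside prefix 882, and 94.8% to 99.9% in the inactive ones. In prefix 882 its active libraries had 72.5%, 71.6% and 73.5%. The inactive libraries of prefix 882 had 75.4%, 73.2%, 41.7% and 75.2%, and the low one is replicate 6, a library that stood apart. Log2 ratios were 5.31 and 5.61 for GB41932 (edgeR adjusted p = 9.45e-08 in the active and 1.2e-06 in the inactive libraries), and 7.38 and 8.35 for GB41933 (edgeR adjusted p = 6.63e-07 and 5.66e-06).

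The strongest maternal genes sat alone among tested genes on their scaffolds. GB52220 (GroupUn7, 110336 to 110683) had 14 separating positions, and its D share was 0.883%, 1.26% and 3.23% in the lowest, median and highest active library. In the inactive libraries it was 0.661%, 2.12% and 4.96%. All 25 libraries were far below 50% and the groups overlapped. Its log2 ratio was -6.14 (SE 0.18, edgeR adjusted p = 9.64e-09) with active and -5.68 (SE 0.20, adjusted p = 8.07e-09) with inactive ovaries. GB52653, known from 1 position (GroupUn134, 12145), gave 2 D and 1473 Q reads with active and 1 D and 821 Q reads with inactive ovaries.

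A maternal pair of smaller size was called on GroupUn121 with active ovaries. GB45918 (GroupUn121, 46742 to 60489) had a D share of 16.1%, 38.9% and 56.5% in the lowest, median and highest of 11 active libraries with reads, and 25%, 38.1% and 51.9% in the 13 inactive ones. Its log2 ratio was -0.66 (edgeR adjusted p = 0.0303) and -0.59 (adjusted p = 0.00259). GB45919 (GroupUn121, 66806 to 83444) had 38.4%, 46.7% and 52.2% in the active and 30.7%, 46.4% and 55.8% in the inactive libraries. It passed with active ovaries (-0.23, edgeR adjusted p = 0.0271) and missed with inactive ones (-0.23, adjusted p = 0.0505). The active call of GB45918 was lost without prefix 875, 882 or 888 (edgeR adjusted p = 0.0769, 0.0564 and 0.119), and that of GB45919 without prefix 882 or 894 (adjusted p = 0.0533 and 0.37). Both active calls were also lost with every genic position (adjusted p = 0.0632 and 0.23).

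In all, 6 pairs of tested genes were neighbours on an unplaced scaffold. With active ovaries 4 of the 6 pairs were called in the same direction, forming 3 clusters of 7 genes, and with inactive ovaries 3 of 6, forming 2 clusters of 5 genes. On placed scaffolds 111 of 689 neighbouring pairs were called in the same direction with active ovaries and 64 of 638 with inactive ovaries. Calls in either direction covered 78.8% of unplaced and 44.7% of placed genes with active ovaries, and 59.4% and 33.3% with inactive ones. Where both genes of a pair were called, 4 of 5 unplaced and 111 of 148 placed pairs shared a direction with active ovaries. With inactive ovaries it was 3 of 3 and 64 of 90. Clusters held 26.9% of unplaced and 45.7% of placed calls with active ovaries, and 26.3% and 38.5% with inactive ones. The 6 unplaced pairs came from 5 scaffolds chosen by which genes could be tested, and no test was made of the counts.

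The other paternal genes called in both statuses were spread over scaffolds and mostly less complete. The genes on GroupUn84, GroupUn91, GroupUn90, GroupUn38 and GroupUn4810 had mean D shares of 60.0% to 91.4% in every prefix and status. Their log2 ratios were 1.42 to 2.60 with active and 1.94 to 2.63 with inactive ovaries. The gene of GroupUn77 was at 0.16 and 0.21, and GB49010 (GroupUn1017) at 1.31 and 0.51. With inactive ovaries GB49010 averaged 51.2%, 51.0% and 51.8% in prefixes 875, 882 and 888, and 78.3% in prefix 894. Between prefixes its adjusted p was 0.00874 (edgeR), and 7 of 13 inactive libraries lay above 50%. Genes tested in 1 status alone were called paternal on GroupUn44 and GroupUn162 and maternal on GroupUn5 and GroupUn19 with active ovaries, and paternal on GroupUn286 with inactive ovaries. In prefixes 875, 882, 888 and 894, mean D shares were 93.6%, 53.9%, 58.0% and 61.7% on GroupUn162. They were 5.56%, 50.8%, 23.3% and 21.7% on GroupUn19, and 69.8%, 47.0%, 83.7% and 49.6% on GroupUn286. These 3 genes differed between prefixes (edgeR adjusted p = 0.0115, 0.0221 and 0.013). The genes of GroupUn44 and GroupUn5 kept their direction in every prefix.

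The parental ratio differed between prefixes in 10 of 33 unplaced genes with active ovaries (30.3%), where 21.8% of all tested genes were called (edgeR quasi-likelihood F test, adjusted p under 0.05). With inactive ovaries it was 9 of 32 (28.1%, against 13.9% of all tested genes). GB47520, known from 1 position (GroupUn3591, 1190), also varied between bees of a prefix. In prefix 888 all 6 libraries had a D share of 97.2% to 99.6%, and in prefix 882 all 7 had 48.7% to 51.3%. In prefix 875 the active libraries had 60.6%, 60.3% and 99.0%, and the inactive ones 99.2%, 98.9% and 96.2%. In prefix 894 the active libraries had 44.4%, 98.8% and 48.8%, and the inactive ones 44.2%, 43.0% and 41.1%. Libraries thus lay either near balance or near complete paternal reads, with few values between. Between prefixes edgeR gave an adjusted p of 0.134 with active and 5.53e-05 with inactive ovaries. Its paternal call with active ovaries (log2 ratio 2.52, edgeR adjusted p = 0.0167) was lost without prefix 888 (adjusted p = 0.395).

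Scaffold GroupUn34 held a neighbouring pair whose direction turned with the prefix, named after its values had been seen. GB44716 (GroupUn34, 8900 to 9590) had D shares of 0%, 1.58% and 0% in the active libraries of prefix 888. In prefix 894 they were 94.6%, 96.4% and 93.9%, and in prefix 882 82.0%, 72.8% and 98.9%. In prefix 875 they were spread, at 56.7%, 12.4% and 66.7%. GB44715 (GroupUn34, 10996 to 11399) had active means of 35.0%, 79.0%, 7.13% and 82.9% in prefixes 875, 882, 888 and 894. Both genes were thus lowest in prefix 888 and highest in prefix 894, and neither was called for a mean ratio (edgeR adjusted p = 0.411 and 0.544 with active ovaries). Between prefixes the edgeR adjusted p was 0.004 for GB44716 and 0.03 for GB44715 with active ovaries, and 0.187 and 0.0469 with inactive ones.

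**Figure D4:**
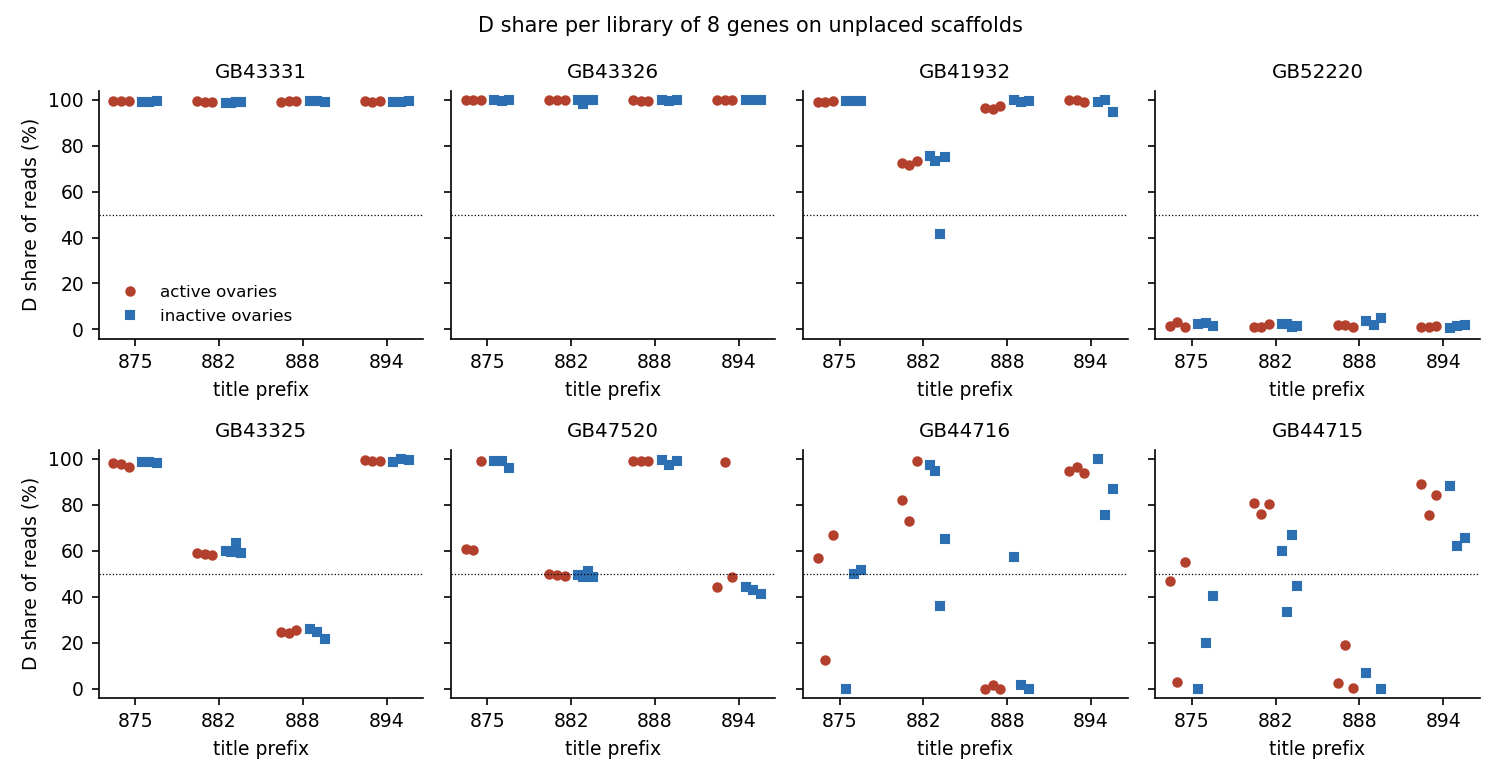
D share of reads (%) in every library for 8 genes on unplaced scaffolds, by title prefix; circles are active and squares inactive ovaries, and the dotted line marks 50%. The top row holds genes with reads of almost a single parent in most prefixes, and the bottom row genes that depended on the prefix, such as GB43325 with active means of 97.4%, 58.6%, 24.9% and 99.4%.

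Few genes changed their parental ratio with ovary status. The direct test covered 768 genes, 29 of them unplaced, and called 3 (0.391%). All 3 were unplaced, and 0 of 739 placed genes were called (edgeR; at an unadjusted p under 0.05 there were 6 of 29 unplaced and 55 of 739 placed genes, 20.7% and 7.44%). The counts of calls in each class changed with the processing. Tested genes numbered 2236 with every genic position and 359 with 1 position per gene, of which 109 and 20 were unplaced. Far more placed than unplaced genes were tested in each setting, so these counts are not shares of the classes. With every genic position 2 of 109 unplaced and 12 placed genes were called, without the 3 inactive libraries 1 and 4, and with 1 position per gene 0 and 1. limma called 2 unplaced and 1 placed gene with a pseudocount of 0.5, and 1 and 0 with a pseudocount of 2. Each of the 3 calls was lost or reversed under some alternative, given with each gene.

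GB51879 (GroupUn93, 31129 to 31849) was maternal in both statuses and less so with active ovaries. Its D share was 15.5%, 24.7% and 51.3% in the lowest, median and highest active library, and 6.57%, 14.5% and 22.8% in the inactive ones. The groups overlapped, and 11 of 12 active and 13 of 13 inactive libraries lay below 50%. The log2 ratio differed by 1.16 (SE 0.21, edgeR adjusted p = 0.00833). By prefix, active and inactive means were 20.4% and 11.5% in 875, 31.1% and 12.4% in 882, 36.9% and 13.9% in 888, and 19.7% and 19.0% in 894. It missed the threshold without prefix 882 (1.0, adjusted p = 0.249), without prefix 888 (0.91, adjusted p = 0.103), leaving out the 3 inactive libraries (0.99, adjusted p = 0.0792) and with 1 position per gene (0.65, adjusted p = 0.717).

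Both other calls were neighbours on GroupUn149 and moved in opposite directions. In GB46096 (GroupUn149, 40632 to 53570) the log2 difference was 2.13 (SE 0.22, edgeR adjusted p = 2.55e-05), and it rested on prefix 882. There, 2 of its 13 positions were separating, 53558 and 53570, which are close enough for a read to cover both. They gave 115 D and 86 Q reads in the active libraries and 0 D and 190 Q reads in the inactive ones, which allows a share of up to 1.58% (3 counts; counting error only, and for independent reads). The other 11 positions of GB46096, 40632 to 45676, were near balance in prefix 882, with a D share of 48.9% with active and 50.9% with inactive ovaries. The difference was -0.25 without prefix 882 (adjusted p = 0.809) and -0.20 with every genic position (adjusted p = 1), and it was 0.99 under limma with a pseudocount of 2 (adjusted p = 0.172). Outside prefix 882 its D share was 50.3% to 63.3% in the active and 48.6% to 74.3% in the inactive libraries.

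GB46095 (GroupUn149, 14573 to 25126) was less paternal in workers with active ovaries (edgeR log2 difference -0.67, SE 0.14, adjusted p = 0.0452). Its D share was 29.0%, 42.3% and 55.3% in the lowest, median and highest active library, and 47.1%, 54.0% and 66.3% in the inactive ones, and the groups overlapped. Prefix 894 went the other way, with a mean of 52.4% in the active and 50.7% in the inactive libraries. Without prefix 875, 882 or 888 it missed the threshold (log2 differences -0.68, -0.56 and -0.51, adjusted p = 0.119, 0.249 and 0.468). It also missed it without the 3 inactive libraries (-0.53, adjusted p = 0.146) and when each gene kept a single position (-1.40, adjusted p = 0.0541). Under limma it missed too (adjusted p = 0.0547 and 0.095 with pseudocounts of 0.5 and 2). Its 62 separating positions held 53 distinct sets of counts, so its summed reads overstate the number of independent ones. Over unplaced scaffolds, 24 of 150 pairs of neighbouring positions at least 1000 bases apart in a gene had counts equal within 1 read in every column, and 1230 of 8331 on placed scaffolds.

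**Figure D5:**
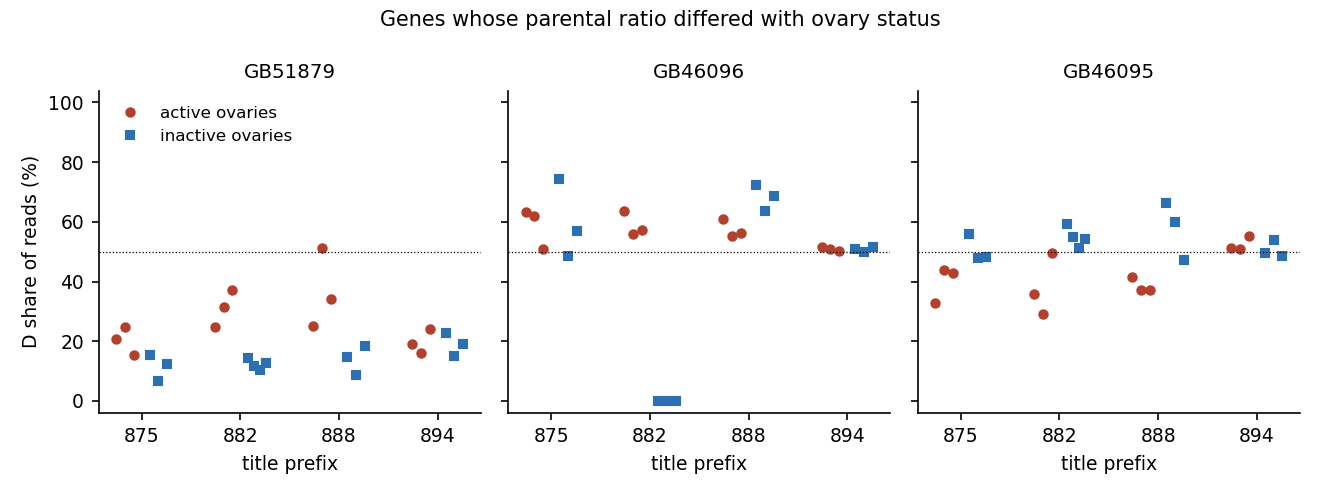
D share of reads (%) in every library, by title prefix, for the 3 unplaced genes called for a difference with ovary status; circles are active and squares inactive ovaries. In GB46096 the 4 inactive libraries of prefix 882 lie at 0%, while in GB51879 the active libraries reach 51.3%.

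The scaffold rule did not use the expression counts, but a gene enters only through positions listed in allele tables of the same libraries. Those lists differ with ovary status, so expression is not a fully independent readout. It could be tested in 274 of the 291 unplaced genes. With active ovaries 25 were higher (9.12%) and 20 lower (7.30%), where 10.9% and 9.62% of all 13746 tested genes were called (edgeR quasi-likelihood test with title prefix as a covariate, adjusted p under 0.05). The median log2 change was -0.08 over unplaced, -0.18 over placed and -0.03 over all tested genes. On placed scaffolds 9.01% were higher and 16.1% lower, and no test of the classes against each other was made. The counts fell when either of a pair of prefixes was left out, as they did in the whole table. Without prefix 882, 1 unplaced gene was higher and 1 lower, and 42 and 9 genes in all. Without prefix 888 there were 3 and 3, and 265 and 59 in all, and with those 3 inactive libraries left out 15 and 11.

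GB45794 (GroupUn62, 15415 to 22529) rose with active ovaries. It stood at 53.0, 103 and 185 counts per 1000000 (CPM) in the lowest, median and highest active library and at 21.2, 53.5 and 132 CPM in the inactive ones (log2 change 1.05, SE 0.20, edgeR adjusted p = 0.00109). GB42511 (GroupUn100, 10002 to 28996) rose by 1.02 (SE 0.26, edgeR adjusted p = 0.00775), with medians of 17.0 CPM in active and 10.1 CPM in inactive libraries. GB45564 (GroupUn3, 97179 to 110311) fell to a median of 114 CPM with active ovaries, against 200 CPM with inactive ones (log2 change -1.08, SE 0.23, edgeR adjusted p = 0.00251). GB49010 (GroupUn1017, 4751 to 8945) fell to 33.5 CPM with active ovaries, against 58.1 CPM (log2 change -0.87, SE 0.18, edgeR adjusted p = 0.00185). In all 4 genes the active and inactive libraries overlapped, and all 4 missed the threshold without prefix 882 (adjusted p 0.0774 to 0.0855).

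The genes with reads of almost a single parent were mostly not called for ovary status. GB43331 varied widely between bees, from 330 to 5124 CPM with active and from 258 to 17414 CPM with inactive ovaries, and its change of -1.58 missed the threshold (SE 0.70, edgeR adjusted p = 0.107). GB43326, GB41932, GB41933 and GB52220 had adjusted p-values of 0.3 to 0.973. GB52653 rose with active ovaries by 0.70 (SE 0.16, edgeR adjusted p = 0.00363), with 38.5, 59.6 and 88.7 CPM in the lowest, median and highest active library and 21.1, 39.5 and 51.5 CPM in the inactive ones.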

How the data were processed

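Polyadenylated RNA of 25 single bees was sequenced. The authors deposited raw read counts per gene and library, and raw D and Q counts per library at single-nucleotide positions; TopHat and edgeR are named, without versions, per the submitters' processing notes. Not given in the sources used here: the build, counting tool, strand setting and the rule that gave reads to D or Q. No column was left without a sample (0), and 0 of 15314 identifiers matched the reference gene table, so no gene names or sequences are given.

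Each table was joined by position. Counts at separating positions (defined above) were summed per gene, library and parent; a read can count at several positions, so sums overstate independent reads. Parental ratios were tested with edgeR 4.0.16 in R 4.3.3 over all genes, with a block per library and a ratio per prefix, and p-values were Benjamini-Hochberg adjusted over all tested genes. The difference used all 25 libraries and positions in both tables. Ovary status used TMM scaling, filterByExpr and prefix as covariate. Each SE is the size of the log2 value over the root of its F statistic. CPM were computed from the counts with TMM-scaled totals. Library shares were tested by sign flips or by permuting status within prefix. limma 3.58.1 and DESeq2 1.42.0 served as alternatives. The fits were tested on simulated data.

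Named per status are the 2 paternal and 2 maternal calls farthest from 50% (same direction in 4 prefixes, at least 500 reads), every difference call, the genes of the 3 largest clusters, the 2 genes with most reads, the 2 with the smallest p between prefixes, and 2 ovary-status calls each way (log2 CPM of at least 4, same direction in 4 prefixes). Members, lists and rules were chosen with earlier results of these data known. Replicate numbers were given in accession order as names; the labels do not say that bees came from separate colonies, so p-values measure the spread between these bees.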

Additional observations from a re-analysis of the deposited data

Results flagged for a closer look

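The placed D share of 51.5% in inactive replicate 6 of prefix 882 lay far below the other 6 libraries of its prefix; 12 groups of libraries were examined in this way, and chance alone marks about 1 group in 20. Its unplaced share of 55.3% was within the range of its prefix.

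The parental ratio differed with ovary status in 3 of 29 tested unplaced genes, and in 3 of all 768 tested genes (0.391%). The log2 difference, active minus inactive, was 2.13 for GB46096, 1.16 for GB51879 and -0.67 for GB46095. Each depended on the choice of libraries or positions, as given with the genes.

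The parental ratio differed between title prefixes in 10 of 33 unplaced genes with active and 9 of 32 with inactive ovaries (edgeR quasi-likelihood F test, adjusted p under 0.05). These were 30.3% and 28.1%, where 21.8% and 13.9% of all tested genes were called.

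Positions on unplaced scaffolds outside annotated genes were in no comparison. Their D share over all reads averaged 79.7% ± 2.45 in the 12 active libraries and 79.9% ± 7.88 in the 13 inactive libraries (SD), with all 25 past 50%. On placed scaffolds it was 52.4% ± 2.18 and 51.9% ± 1.23. A few scaffolds held most of these reads. GroupUn10 alone held 42.6% of them with active ovaries, at a D share of 87.4% ± 5.28, and 27.9% with inactive ovaries, at 89.0% ± 6.40. Without the 5 scaffolds with the most reads in each status, the share was 57.1% ± 4.63 with active and 61.7% ± 11.5 with inactive ovaries. On GroupUn179, where both tested genes were paternal, 55 positions outside genes had a D share of 90.6% over the active libraries and 51 positions had 91.3% over the inactive ones. On GroupUn98 the values were 89.4% over 16 positions and 93.5% over 15.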

How the results depend on the processing

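The gap in D share between unplaced and placed scaffolds (3.34 points over all libraries) missed the threshold with positions above the chi-square median (2.01), with 1 position per gene (2.90), without GroupUn98 (2.12) and without GroupUn98 and GroupUn179 (1.11), the last 2 chosen after seeing the data. Leaving out a prefix gave 2.81 to 3.85, and it was missed at 2.81, without prefix 894 (permutation test, adjusted p = 0.0513). With active ovaries (1.79) it was -0.23 above the chi-square median and -0.396 without both scaffolds, and passed with pooled reads (12.7). With inactive ovaries (4.77) it missed with the chi-square median (4.09), the median over genes (5.05), 1 position per gene (4.89), without GroupUn98 (3.53) and without both scaffolds (2.51), and leaving out a prefix gave 3.81 to 6.48, missed without prefix 894 (4.29). In prefix 882 it reversed with 1 position per gene (-0.0115) and without both scaffolds (-0.525), and in prefix 888 without the 3 inactive libraries (-0.0883). In prefix 882 it passed without positions lacking a parent (2.26 points, exact test, adjusted p = 0.0365). The excess of genes with reads of almost a single parent passed under every alternative run, but its size ran from 5.01 to 10.9 points with active and 5.31 to 15.6 with inactive ovaries at the paternal end, and from 2.65 to 6.08 and 1.97 to 5.76 at the maternal end, with the lowest of each from every genic position. Over all libraries the gap was 15.9 with pooled reads and 1.37 with every genic position, both past the threshold.

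Counts of unplaced calls moved by more than 1.5 times as follows. The number of tested genes changed with most settings, so a moved count need not be a moved share. With 1 position per gene there were 5 maternal calls with active and 3 with inactive ovaries, 4 calls between prefixes with inactive ovaries and 0 difference calls. With every genic position there were 31 paternal calls, 17 calls between prefixes and 6 clusters with inactive ovaries. There 120 unplaced genes were tested in place of 32. The share of paternal calls was 25.8%, lower than the 43.8% at separating positions, and 14.2% for placed genes. Centring each library gave 8 maternal calls with inactive ovaries. Difference calls numbered 1 under limma with a pseudocount of 2 and 1 without the 3 inactive libraries. Expression calls numbered 15 higher and 11 lower without those libraries, and 37 lower under DESeq2. Leaving out each prefix in turn gave 4 to 9 calls between prefixes with active and 5 to 8 with inactive ovaries, 13 to 23 paternal and 4 to 8 maternal calls with inactive ovaries, 0 to 4 difference calls, and 1 to 35 higher and 1 to 39 lower expression calls. For the parental calls with inactive ovaries, 34 to 47 unplaced genes were tested. Paternal calls were 38.2% to 48.9% of them and 18.4% to 23.4% of placed genes. Maternal calls were 8.51% to 23.5% and 4.81% to 5.67%.

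Directions turned in 4 genes. GB46095 with active ovaries was at 0.02 with 1 position. GB46096 with inactive ovaries was at 0.44 with every position and -2.73 to 0.58 without a prefix, and its difference was -0.20 and -0.25 to 3.06. GB44715 with active ovaries was at 2.09 with 1 position and -1.36 to 1.07 without a prefix. GB44716 was at 0.35 without positions lacking a parent and -2.27 to 2.27 without a prefix with active ovaries, and at 0.10 under limma with a pseudocount of 2 and -1.42 to 1.27 without a prefix with inactive ovaries. The cause was not tested. No paired analysis was possible because the labels give no shared replicate numbers. Without the 3 inactive libraries, prefix 888 kept 1 inactive library, assumed to vary like the others. The choice of separating positions left 36 of 291 genes to test; with every genic position 122 unplaced genes with active and 120 with inactive ovaries reached the same read minimum.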
